A study of Homo sapiens with 4 samples.

Results

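The proteasome genes of Cal-62 cells, a human anaplastic thyroid carcinoma line, were compared between niraparib and DMSO. Niraparib is an inhibitor of PARP1 and PARP2, enzymes that attach poly(ADP-ribose) chains to proteins at DNA breaks, and DMSO is its solvent. Members were the genes whose symbol is PSM followed by a letter from A to G and a number, and 47 of the 16717 entries of the expression table met that rule. PSMB11, a further gene that fits the rule, was not analysed here. RNA-Seq was taken from 2 libraries of niraparib-treated cells and 2 libraries of DMSO-treated cells, all of the same line with no genetic change named. The concentration and the time of treatment for these libraries were not given in the sources used here, and no source says that the replicates came from separate cultures, so that p-values measure the spread between these libraries, which may be technical. Values are TPM, each transcript's share of a library corrected for its length, so that levels of different genes can be compared, and they summed to between 994264 and 995353 in the 4 libraries. The number of reads behind them is unknown.

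The 26S proteasome is the protease complex that degrades proteins tagged with ubiquitin chains. Its 20S core is a barrel of stacked rings, with alpha subunits (PSMA) forming the outer rings and beta subunits (PSMB) the inner rings, and only PSMB5, PSMB6 and PSMB7 among the constitutive beta subunits cut peptide bonds. The 19S cap holds a base of ATPases (PSMC) that unfold the substrate and a lid (most PSMD genes) that removes the ubiquitin. Interferons induce PSMB8, PSMB9 and PSMB10, which take the places of PSMB5, PSMB6 and PSMB7 in the immunoproteasome, and also induce PSME1 and PSME2, which form the PA28 cap; the resulting peptides feed antigen presentation on MHC class I. The study also treated cells with bortezomib, a drug that blocks the core and mainly the active site of PSMB5.

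The promoters of 4 of the 5 inducible members, all but that of PSMB9, held the same short sequence, which is shown here because interferon acts through elements of this kind. Windows of 300 bases around annotated starts (250 before and 50 after) were taken from RefSeq on GRCh38.p14 for 41 of the 47 members, in 50 windows. The core of the interferon-stimulated response element, searched as GAAANNGAA on both strands, was found in 16% of the member windows and in 8.11% of all 35116 windows. It was found in windows of PSMB8, PSMB10, PSME1 and PSME2, and in those of PSMA4, PSMB4, PSMC2 and PSMG4. Other annotated windows of PSMB8 and PSMA4 held no match to it. In PSMB8, PSMB10, PSME1, PSME2 and PSMG4 the match was the same run of letters, GAAAGCGAA or its reverse complement, a run noticed after the matches were seen and held by 0.268% of all windows. The stretches around it follow, each 80 bases long and written along the gene's own strand, with the match in capitals. They lie at chr6:32844007-32844086 (minus strand) for PSMB8, chr16:67936828-67936907 (minus strand) for PSMB10, chr14:24136164-24136243 (plus strand) for PSME1 and chr14:24146595-24146674 (minus strand) for PSME2.
PSMB8: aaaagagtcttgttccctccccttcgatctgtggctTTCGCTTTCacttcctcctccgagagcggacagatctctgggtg
PSMB10: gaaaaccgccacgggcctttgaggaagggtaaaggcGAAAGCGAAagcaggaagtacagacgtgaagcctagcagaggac
PSME1: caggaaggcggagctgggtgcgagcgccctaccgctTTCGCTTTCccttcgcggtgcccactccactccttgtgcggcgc
PSME2: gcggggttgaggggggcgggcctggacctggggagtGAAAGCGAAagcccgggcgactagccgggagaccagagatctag

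The window of PSMB9 held no such match. It held a CCAAT box and 1 match to the core of the antioxidant response element, searched as TGACNNNGC or TGAGNNNGC on both strands, and is printed whole with both in capitals (chr6:32853942-32854241, plus strand). Stretches of PSMA3 (chr14:58244793-58244872, plus strand) and PSMD14 (chr2:161308355-161308434, plus strand) are given as examples of members that were lower with niraparib. The capitals in PSMA3 mark 2 CCAAT boxes, the first on the opposite strand, and an antioxidant element that overlaps the second box. The capitals in PSMD14 mark overlapping CCAAT boxes on opposite strands.
PSMB9: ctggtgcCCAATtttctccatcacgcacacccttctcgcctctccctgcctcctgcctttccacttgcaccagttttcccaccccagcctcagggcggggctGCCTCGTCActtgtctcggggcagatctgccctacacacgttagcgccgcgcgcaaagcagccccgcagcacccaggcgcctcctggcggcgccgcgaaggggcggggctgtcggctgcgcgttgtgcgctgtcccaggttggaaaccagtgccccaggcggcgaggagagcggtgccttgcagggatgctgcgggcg
PSMA3: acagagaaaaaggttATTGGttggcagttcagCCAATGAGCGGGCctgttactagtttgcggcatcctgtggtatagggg
PSMD14: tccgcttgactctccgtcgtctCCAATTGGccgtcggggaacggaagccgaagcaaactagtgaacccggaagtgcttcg

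Across the members, the antioxidant element core was in 46% of the windows, against 29.1% of all windows, and CCAAT was in 38%, against 34.6%. These elements are bound by NFE2L1 or NFE2L2 with small MAF proteins, and by NF-Y. A match to so short a motif is a description of letters, and binding was not measured. Among genes with a window, the antioxidant core was found in 11 of 21 members that fell, 9 of 16 that did not pass the test and 2 of 4 that rose. The core of the interferon element was found in 3 of the 21, 3 of the 16 and 2 of the 4.

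All 47 members passed the filter on low values, which asked for 1 TPM or more in 2 or more libraries. Members that build the constitutive particle were mostly lower with niraparib, and the members that rose were PSMB8, PSMB9, PSME1 and PSMF1. By limma on log2(TPM + 1), with Benjamini-Hochberg adjustment over the 13377 genes tested and a threshold of 0.05, 25 members fell, 4 rose and 18 did not pass. Over all genes tested, 11.7% were called lower and 20.8% higher, so that the members' calls ran mostly the other way from those of the whole table. The split of calls over all genes depends on scaling, with 2780 higher and 1559 lower as deposited, against 2129 higher and 2086 lower after median-of-ratios scaling. That scaling gave 4 higher and 27 lower among the members. The median log2 fold change was -0.20 over the members, of which 39 were below 0, and 0.07 over all genes tested. Both niraparib libraries lay below both DMSO libraries in 33 members, against 29% of all genes, and above them in 6 members, against 41.9% of all genes. The members' changes were small, ranging from -0.86 to 0.97, and 3 of the 29 calls reached 1.5-fold on this log2(TPM + 1) scale, those of PSMC6, PSMA3 and PSMB9.

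**Figure D1:**
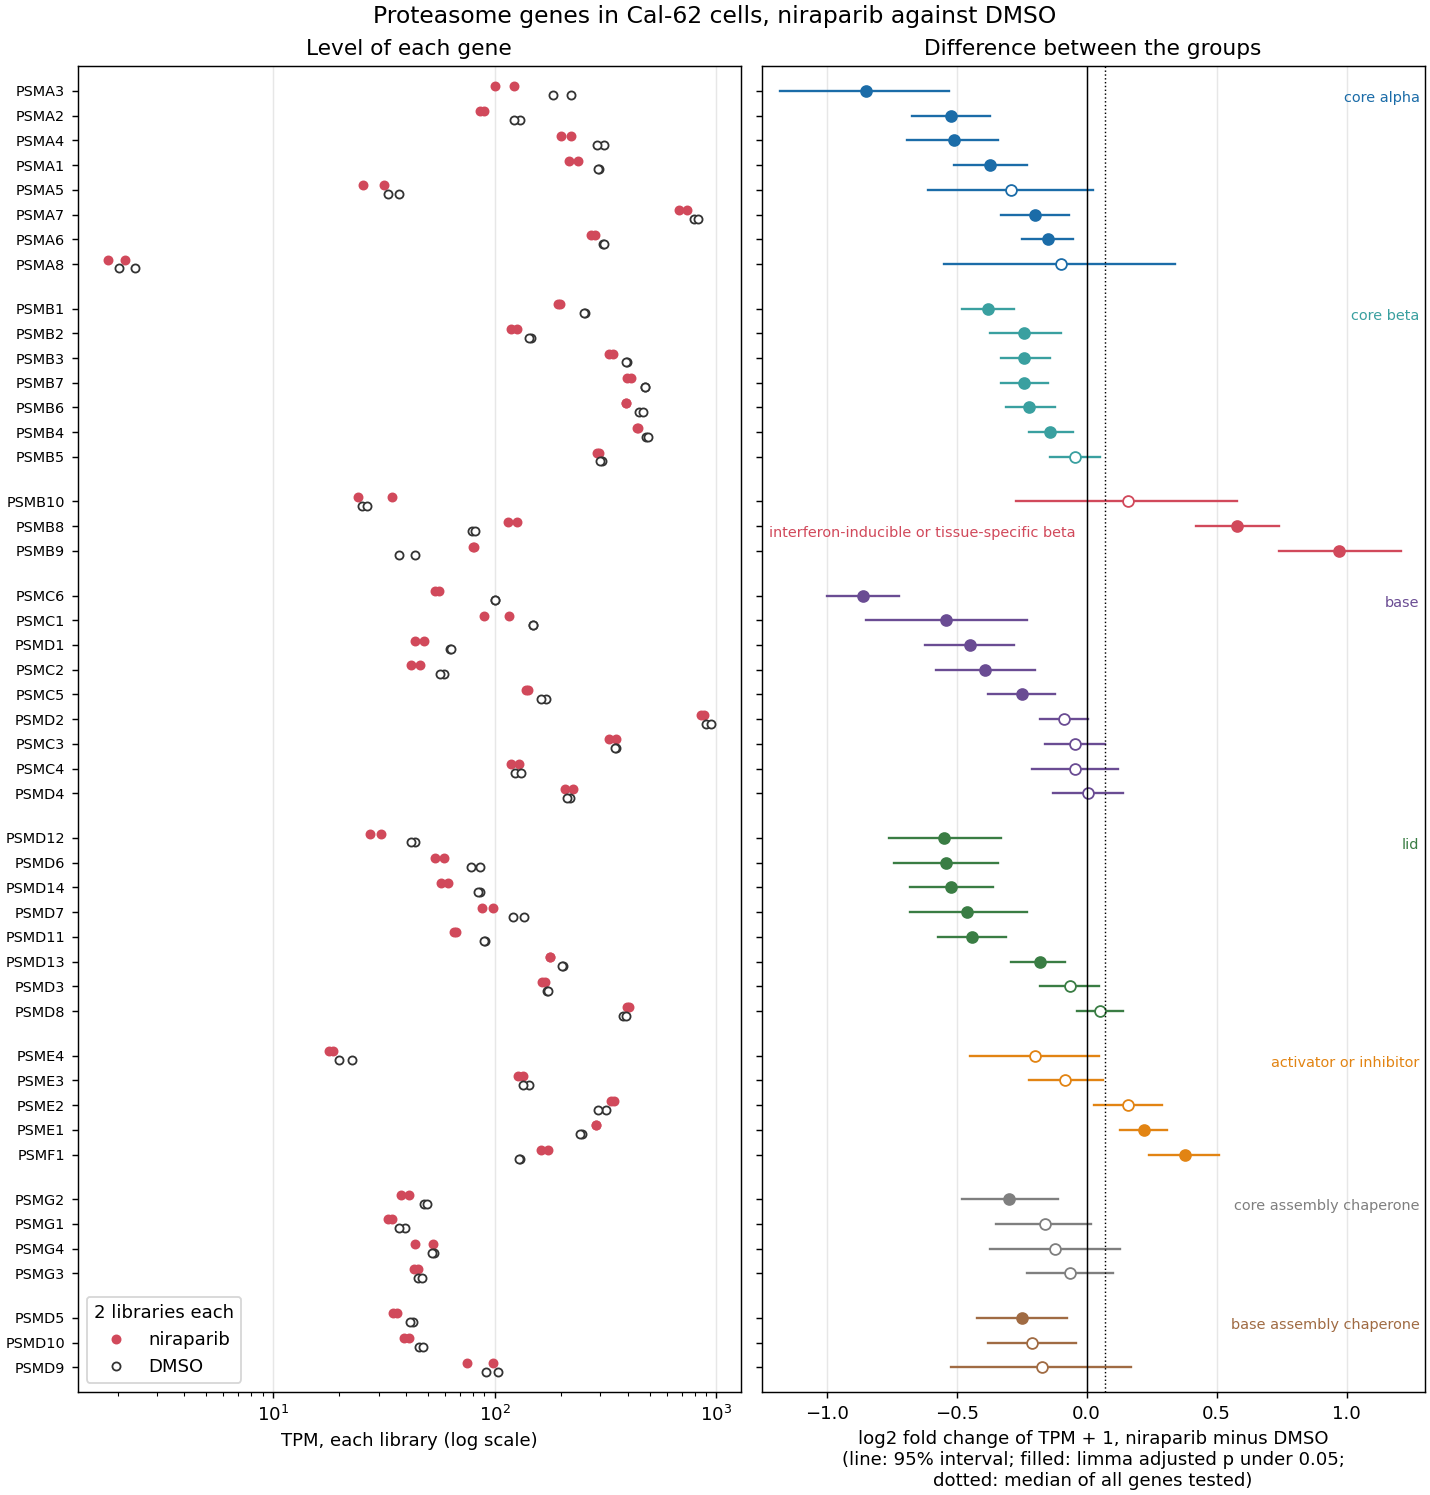
Levels and differences of all 47 members, grouped by role and ordered within a role by fold change. On the left, each point is the TPM of 1 library on a log axis (filled, niraparib; open, DMSO). On the right, each point is the log2 fold change of TPM + 1 with its 95% interval, filled where it passed the test, and the dotted line is the median of all genes tested at 0.07. The constitutive core, base and lid lie at or left of 0 apart from PSMD4 at 0.0069 and PSMD8 at 0.05, whereas PSMB8, PSMB9, PSME1 and PSMF1 lie to the right.

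In the alpha rings, which gate entry to the core, 6 of 8 members fell and none rose, with a median of -0.33. PSMA3 had 100.5 and 122.3 TPM with niraparib, against 221.5 and 182.7 TPM with DMSO, a log2 fold change of -0.85 (SE 0.128, limma adjusted p = 0.00909). PSMA2 had 85.71 and 89.93 TPM with niraparib, against 130.6 and 122.4 TPM with DMSO (-0.52, SE 0.0587, limma adjusted p = 0.00487). PSMA4 had 198.3 and 222.1 TPM with niraparib, against 310.4 and 289.9 TPM with DMSO (-0.51, SE 0.069, limma adjusted p = 0.00701). In each of these 3 genes both niraparib libraries lay below both DMSO libraries, and the replicates differed most in PSMA3. PSMA1 had 216 and 237.2 TPM with niraparib, against 294 and 291.5 TPM with DMSO, a log2 fold change of -0.37. The most abundant alpha gene, PSMA7, had 676.6 and 736.4 TPM with niraparib, against 791.6 and 827.4 TPM with DMSO (-0.20, limma adjusted p = 0.0377). PSMA6 had 272 and 282.2 TPM with niraparib, against 306.8 and 309.9 TPM with DMSO (-0.15, limma adjusted p = 0.0367). The calls of PSMA6 and PSMA7 were near the threshold, and both were lost when niraparib replicate 1, DMSO replicate 1 or DMSO replicate 2 was left out, as that of PSMA6 was without niraparib replicate 2. PSMA5 did not pass, with 25.4 and 31.66 TPM with niraparib, against 36.96 and 33.11 TPM with DMSO (-0.29, limma adjusted p = 0.132). PSMA8, an alpha subunit known from testis in place of PSMA7, was near 2 TPM in every library and did not pass.

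In the beta rings, 6 of 7 constitutive members fell and none rose, with a median of -0.24 and a range of -0.38 to -0.043. PSMB1, a structural beta subunit, had 196.6 and 193.3 TPM with niraparib, against 254.9 and 252.6 TPM with DMSO (-0.38, SE 0.0391, limma adjusted p = 0.00404). PSMB2 had 118.2 and 126.4 TPM with niraparib, against 145.8 and 142.9 TPM with DMSO, and PSMB3 had 326.9 and 340.1 TPM with niraparib, against 395.6 and 390.6 TPM with DMSO, with a log2 fold change of -0.24 for each. PSMB4 had 440.5 and 445.2 TPM with niraparib, against 481.4 and 492.7 TPM with DMSO (-0.14, limma adjusted p = 0.0333). In all 4 of these structural genes the replicates were close to each other and the groups did not overlap. The catalytic members differed among themselves. PSMB6, of caspase-like activity, had 392.3 and 390.4 TPM with niraparib, against 446.7 and 464.1 TPM with DMSO (-0.22, limma adjusted p = 0.0122). PSMB7, of trypsin-like activity, had 395.3 and 410.2 TPM with niraparib, against 478.1 and 474 TPM with DMSO (-0.24, limma adjusted p = 0.00932). PSMB5, of chymotrypsin-like activity and the main target of bortezomib, had 294.2 and 290.1 TPM with niraparib, against 304.1 and 297.8 TPM with DMSO. Its log2 fold change was -0.043 with a 95% interval of -0.14 to 0.051, and it did not pass (limma adjusted p = 0.417). Both niraparib libraries of PSMB5 were nonetheless below both DMSO libraries, by a narrow margin. After the adjustment for GC content described below it was called lower (-0.15, limma adjusted p = 0.0354).

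The interferon-inducible beta subunits went the other way. PSMB9, the inducible counterpart of PSMB6, had 80.44 and 79.57 TPM with niraparib, against 36.91 and 43.82 TPM with DMSO, which is 1.98-fold higher (log2 0.97, SE 0.0932, limma adjusted p = 0.00346). PSMB8, the counterpart of PSMB5, had 115.1 and 126.1 TPM with niraparib, against 78.9 and 81.22 TPM with DMSO, which is 1.51-fold higher (log2 0.58, SE 0.0638, limma adjusted p = 0.00454). In both genes each niraparib library was well above each DMSO library. PSMB10, the counterpart of PSMB7, had 34.57 and 24.24 TPM with niraparib, against 25.23 and 26.5 TPM with DMSO. One niraparib library was thus above both DMSO libraries and the other below them, and PSMB10 did not pass (0.16, 95% interval -0.27 to 0.58, limma adjusted p = 0.507). Without niraparib replicate 1 its log2 fold change was -0.09, and without niraparib replicate 2 it was 0.41.

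PSMB8 and PSMB9 are neighbours in the MHC class II region of chromosome 6, and on GRCh37 their annotated spans overlap (chr6:32808494-32812456 on the minus strand and chr6:32811913-32827628 on the plus strand). The antisense RNA PSMB8-AS1, which overlaps both, had 4.48 and 3.98 TPM with niraparib, against 2.51 and 3.71 TPM with DMSO, far below either gene. TAP1, which overlaps the span of PSMB9 on the opposite strand, had 50.14 and 52.18 TPM with niraparib, against 29.09 and 32.74 TPM with DMSO. Whether reads were counted by strand is not stated, so that reads from the shared stretches could not be assigned with certainty.

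Expressed as the ratio to its constitutive counterpart, the level of PSMB9 over PSMB6 was 0.205 and 0.204 with niraparib, against 0.0826 and 0.0944 with DMSO, a 2.31-fold difference. PSMB8 over PSMB5 was 0.391 and 0.435 with niraparib, against 0.259 and 0.273 with DMSO, a 1.55-fold difference. PSMB10 over PSMB7 was 0.0875 and 0.0591 with niraparib, against 0.0528 and 0.0559 with DMSO. For all 3 ratios both niraparib libraries were above both DMSO libraries, by a narrow margin for PSMB10 over PSMB7. The two-sided exact permutation test over 4 libraries gave p = 0.333 for each ratio, which is the smallest p that 2 against 2 libraries can give. Together the inducible subunits made up 17.5% and 17.4% of the summed TPM of the 6 catalytic subunits with niraparib, against 10.3% and 10.9% with DMSO. Constitutive catalytic mRNA remained the larger share in every library. After the GC adjustment described below, log2 fold changes were 0.88 for PSMB9 and -0.37 for PSMB6, and 0.44 for PSMB8 and -0.15 for PSMB5. Those of PSMB10 and PSMB7 were then -0.12 and -0.28, against 0.16 and -0.24 as deposited.

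**Figure D2:**
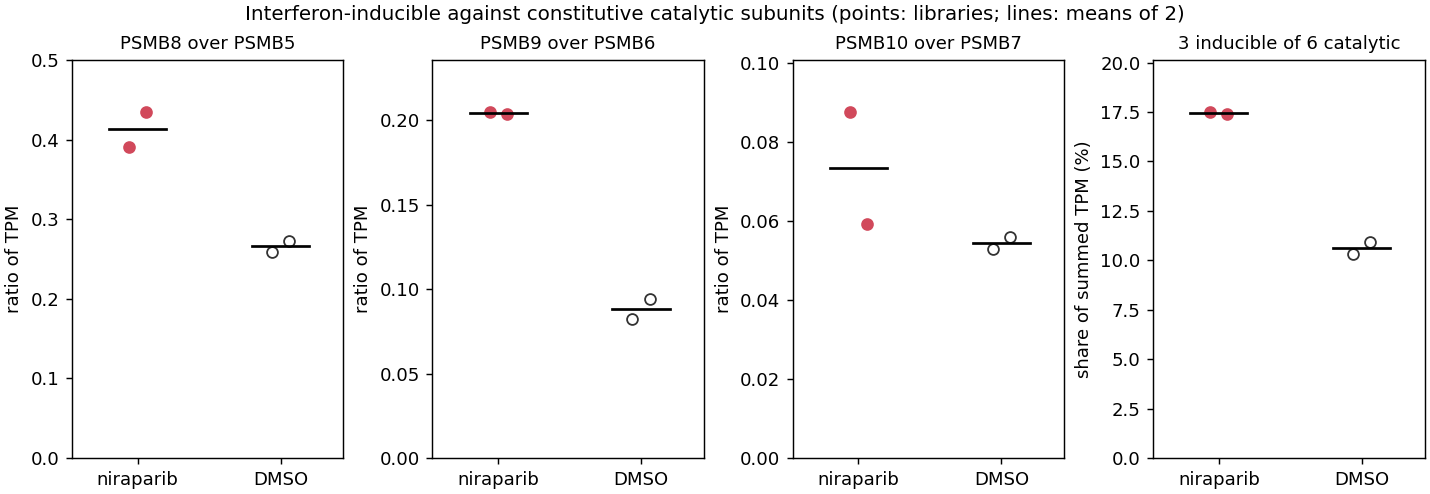
Ratio of the TPM of each inducible catalytic subunit to its constitutive counterpart, and the share of the inducible subunits in the summed TPM of all 6 (%), in each library (points) with the mean of 2 libraries (lines), niraparib on the left and DMSO on the right. The share was 17.5% and 17.4% with niraparib, against 10.3% and 10.9% with DMSO, and the separation was widest for PSMB9 over PSMB6.

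In the base of the 19S cap, 5 of 9 members fell and none rose, with a median of -0.25 and wide variation among the ATPases. PSMC6 showed the lowest fold change of all members, with 53.63 and 56.14 TPM with niraparib, against 99.99 and 100.6 TPM with DMSO (-0.86, SE 0.0557, limma adjusted p = 0.00199). PSMC1 had 89.68 and 116.2 TPM with niraparib, against 149 and 148.3 TPM with DMSO (-0.54, limma adjusted p = 0.0263), a call that did not hold when either DMSO library was left out. The niraparib libraries of PSMC1 differed from each other by more than those of PSMC6, and both lay below the DMSO libraries. PSMC2 had 41.81 and 46.1 TPM with niraparib, against 59.04 and 56.69 TPM with DMSO (-0.39), and PSMC5 had 138.1 and 141.8 TPM with niraparib, against 171.2 and 161.6 TPM with DMSO (-0.25). PSMD1, the large scaffold of the base that receives ubiquitin receptors, had 44 and 47.98 TPM with niraparib, against 62.81 and 63.51 TPM with DMSO (-0.45, limma adjusted p = 0.00947). The other large scaffold, PSMD2, was the most abundant member in every library and did not pass, with 875.5 and 855.6 TPM with niraparib, against 895.9 and 942.2 TPM with DMSO (-0.086). The ATPases PSMC3 and PSMC4 and the ubiquitin receptor PSMD4 did not pass either, with log2 fold changes of -0.046, -0.044 and 0.0069. PSMC1 has 13 annotated pseudogenes, of which PSMC1P1 is in the table, at 12.49 and 10.7 TPM with niraparib, against 17.14 and 14.24 TPM with DMSO, and reads shared between them may have been split. PSMC2 overlaps PMPCB on the same strand, so that its level is uncertain in the same way.

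The lid fell most by its median, -0.45, with 6 of 8 members lower and none higher. PSMD14, the metalloprotease that cuts ubiquitin chains off the substrate, had 57.08 and 61.56 TPM with niraparib, against 86.25 and 84.42 TPM with DMSO (-0.52, SE 0.0628, limma adjusted p = 0.00556). PSMD7, its inactive partner, had 87.35 and 98.85 TPM with niraparib, against 120.6 and 135.4 TPM with DMSO (-0.46, limma adjusted p = 0.017). The pair that forms the deubiquitinating module was thus lower by similar amounts. Among the scaffolding subunits, PSMD12 had 27.53 and 30.7 TPM with niraparib, against 43.95 and 41.84 TPM with DMSO (-0.55). PSMD6 had 53.71 and 59.13 TPM with niraparib, against 86.32 and 78.67 TPM with DMSO (-0.54). PSMD11, whose level is known to set proteasome activity in embryonic stem cells, had 65.45 and 66.93 TPM with niraparib, against 90.43 and 90.02 TPM with DMSO (-0.44). These 3 were called with limma adjusted p-values of 0.00955, 0.00854 and 0.00535, and no niraparib library reached a DMSO library. PSMD13 had 178.2 and 178.1 TPM with niraparib, against 204.3 and 201 TPM with DMSO, a smaller difference of -0.18. PSMD3 had a log2 fold change of -0.064 and PSMD8 one of 0.05, and neither passed. These 2 and PSMD13 have the highest GC content of the lid genes, 51.5% to 58.5%. The other 5, at 37.5% to 46.2%, fell by 0.44 to 0.55. After adjustment for GC content PSMD3, PSMD13 and PSMD8 were at -0.29, -0.26 and -0.15. PSMD12, PSMD14, PSMD7, PSMD11 and PSMD6 were then at -0.21, -0.34, -0.37, -0.39 and -0.45.

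Levels within a ring were uneven although each subunit occupies equal places in the particle. In the alpha rings (PSMA1 to PSMA7) the mean level of the highest gene, PSMA7, was 24.8 times that of the lowest, PSMA5, with niraparib and 23.1 times with DMSO. The highest beta subunit, PSMB4, was 3.62 times the lowest, PSMB2, with niraparib and 3.37 times with DMSO. In the ATPase ring the ratio of PSMC3 to PSMC2 was 7.75 with niraparib and 6.07 with DMSO, and in the lid that of PSMD8 to PSMD12 was 13.7 with niraparib and 8.96 with DMSO. The same genes were thus highest and lowest under both conditions. These ratios were not compared between the groups, since in each pair the gene of lower level also has the lower GC content, along which fold changes moved as given below.

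Among the caps other than 19S and the core's inhibitor, 2 of 5 members rose and none fell. Over all genes tested, 20.8% were higher and 11.7% lower. With the GC adjustment described below and the libraries also centred, 1 of the 5 was higher. PSME1, the alpha subunit of PA28, had 285.1 and 287.1 TPM with niraparib, against 247.2 and 243.8 TPM with DMSO (0.22, limma adjusted p = 0.0122). PSME2, its beta partner, had 336 and 347 TPM with niraparib, against 317.8 and 293.1 TPM with DMSO, and did not pass (0.16, limma adjusted p = 0.0663). Both PA28 genes were above DMSO in both niraparib libraries, by small amounts, and the call of PSME1 was lost when either DMSO library was left out. PSMF1, known as PI31, which inhibits the isolated core in vitro and takes part in proteasome transport in neurons of flies and mice, had 162.3 and 174.8 TPM with niraparib, against 130.6 and 128.4 TPM with DMSO (0.38, SE 0.0543, limma adjusted p = 0.00827). PSME3, the nuclear cap PA28 gamma, and PSME4, the nuclear cap PA200, which acts on acetylated histones, did not pass, with log2 fold changes of -0.082 and -0.20. PSME3 is not known as interferon-inducible, unlike PSME1 and PSME2.

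Assembly chaperones guide the rings together and leave the finished particle. Of them, 1 of 4 core chaperones and 1 of 3 base chaperones fell, and none rose. Over all genes tested, 11.7% were lower and 20.8% higher. PSMG2, which pairs with PSMG1 to start the alpha ring, had 41.11 and 37.78 TPM with niraparib, against 47.93 and 49.37 TPM with DMSO (-0.30, limma adjusted p = 0.0325). PSMG1, PSMG3 and PSMG4 did not pass, with log2 fold changes of -0.16, -0.062 and -0.12. Of the base chaperones, PSMD5 had 34.69 and 36.19 TPM with niraparib, against 42.95 and 41.56 TPM with DMSO (-0.25, limma adjusted p = 0.0444), and PSMD9 and PSMD10 did not pass. The calls of PSMG2 and PSMD5 were each lost when any 1 of the 4 libraries was left out.

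Summed over the 31 constitutive core and 19S genes (without PSMA8), the mRNA of the particle amounted to 6695 and 6924 TPM with niraparib, against 7916 and 7934 TPM with DMSO, a difference of -14.1%. None of the 31 rose and 23 fell, with a median of -0.25. The 5 interferon-inducible genes (PSMB8, PSMB9, PSMB10, PSME1 and PSME2) summed to 851.2 and 864 TPM with niraparib, against 706.1 and 688.4 TPM with DMSO, a difference of 23%. Of these 5, 3 rose and none fell, against 20.8% of all genes tested higher and 11.7% lower, with a median of 0.22. That median was 0.41 without niraparib replicate 2, 0.14 after median-of-ratios scaling or the GC adjustment described below, and 0.077 after that adjustment with the libraries also centred, when 2 of the 5 were higher. Within the 3 inducible beta subunits alone the sum was 230.1 and 229.9 TPM with niraparib, against 141 and 151.5 TPM with DMSO, a difference of 57.2%. In these bulk libraries, less of a transcript per cell and a smaller share of cells that express it cannot be told apart.

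**Figure D3:**
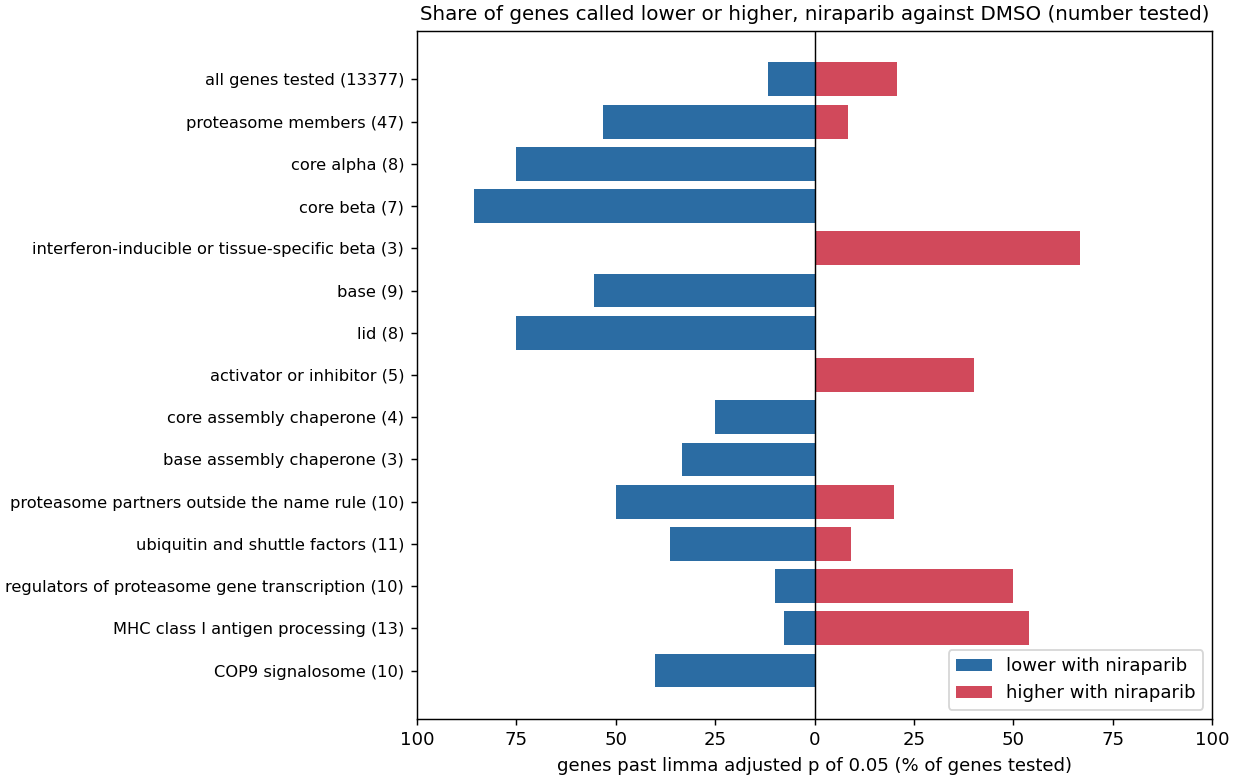
Share of genes called lower (to the left) or higher (to the right) by limma in all genes tested, in the members, in each role and in the related lists, in percent of the genes tested, whose number is in brackets. Calls in the constitutive core, base and lid lie only on the lower side, and those of the inducible beta subunits and of the activators and inhibitor only on the higher side, with 11.7% lower and 20.8% higher over all genes tested.

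Fold changes in these libraries moved with the GC content of the transcript. Over 12513 genes with a known GC content, Spearman's rho was 0.517 across genes, which are not independent replicates, and genes under 38.5% GC had a median log2 fold change of -0.273, against 0.372 for genes over 62.1%. The same ordering held among the members, where rho was 0.669 and Pearson's r 0.575 over 47 genes of the same libraries. GC content of the members spanned 36.4% for PSMC6 and PSMA8 to 61.7% for PSMB10, with a median of 48.4%, close to the 48.7% of all genes. Of the 18 members under 45%, a bound chosen after the data were seen, 13 fell and none rose, against 21.8% of all such genes lower. Of the 29 members at or above 45%, 12 fell and 4 rose, against 6.48% of all such genes lower and 31.3% higher.

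When the GC trend of each library was subtracted, 25 members fell and 4 rose, against 10.6% of all genes lower and 15.6% higher, and the median was -0.21. The members that fell were not all the same. Calls were lost for PSMA6, PSMB2, PSMC2, PSMD12, PSMD5 and PSMG2, whose adjusted values ranged from -0.21 to -0.017, and 6 members became called lower, namely PSMB5, PSMC3, PSMD2, PSMD3, PSMD8 and PSMG3. PSMB5 was then at -0.15 (limma adjusted p = 0.0354). Low-GC members kept smaller differences, with PSMC6 at -0.50 and PSMA3 at -0.61, and those of PSMA5, PSMD10, PSMG1 and PSMA8 were above 0 without passing. PSMB9 and PSMB8 remained higher, at 0.88 and 0.44, as did PSMF1 at 0.37 and PSME1 at 0.14 (limma adjusted p = 0.0438), whereas PSMB10 was at -0.12. The call of PSME1 was lost when the libraries were also centred (0.077, limma adjusted p = 0.146). Lid members then had a median of -0.32, core beta members one of -0.28, base members one of -0.22 and core alpha members one of -0.21. The 3 base chaperones held no call after the adjustment. Libraries of 1 treatment also differed along GC content, with a rho of 0.296 for niraparib replicate 1 minus 2 and of -0.111 for DMSO replicate 1 minus 2, both smaller in size than that between the groups. Whether the GC trend arose in the cells or in library preparation was not tested.

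**Figure D4:**
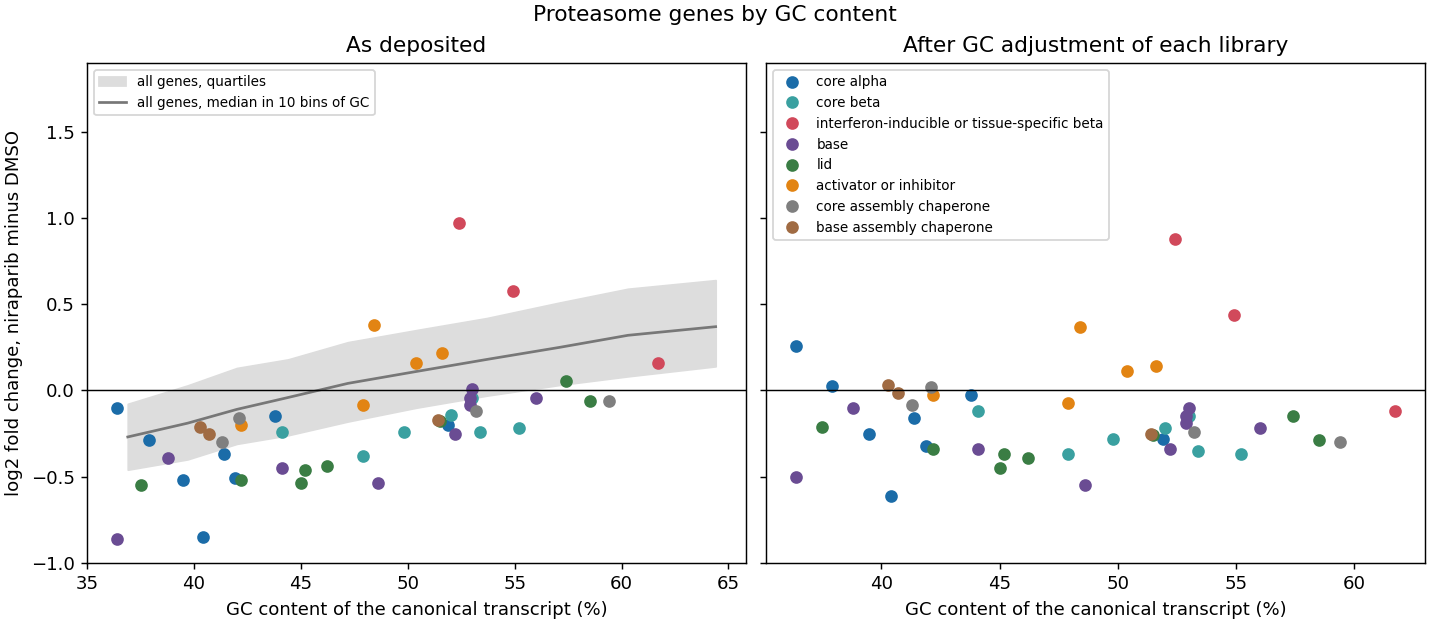
Log2 fold change of each member against the GC content of its canonical transcript (%), as deposited on the left and after the GC trend of each library was subtracted on the right, coloured by role. The grey line and band on the left are the median and the range between quartiles of all genes in 10 bins of GC content, with medians from -0.273 in the lowest bin to 0.372 in the highest. Most members of the core, base and lid lie below the grey line, and PSMB8 and PSMB9 lie above it.

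Of the 29 called members, 15 kept their call when each of the 4 libraries was left out in turn, namely PSMA1, PSMA2, PSMA3, PSMA4, PSMB1, PSMB7, PSMC6, PSMD1, PSMD6, PSMD11, PSMD12 and PSMD14 among those that fell, and PSMB8, PSMB9 and PSMF1 among those that rose. The other 14 lost it in at least 1 of these fits (PSMA6, PSMA7, PSMB2, PSMB3, PSMB4, PSMB6, PSMC1, PSMC2, PSMC5, PSMD5, PSMD7, PSMD13, PSME1 and PSMG2), and the number of members kept was 18 without niraparib replicate 1, 23 without niraparib replicate 2 and 17 without either DMSO library.

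Genes of proteins that work with the particle but lack a PSM name moved partly with the members as deposited. Of 10 such partners, with a median of -0.35, 5 fell and 2 rose, against 11.7% of all genes tested lower and 20.8% higher. POMP, the chaperone that completes the core, had 56.39 and 62.11 TPM with niraparib, against 76.29 and 72.02 TPM with DMSO (-0.32, limma adjusted p = 0.0266). Its transcript has a GC content of 33.1%, and after the GC adjustment its value was 0.071 and the call was lost. TXNL1, a thioredoxin-like protein on the 19S cap, fell by 0.41, and ADRM1, a ubiquitin receptor of the base, fell by 0.23. PAAF1, which holds 19S parts apart from the core, had 14.23 and 12.64 TPM with niraparib, against 8.95 and 7.95 TPM with DMSO (0.61, limma adjusted p = 0.018). ECPAS, which tethers 19S to 20S, was at 23.94 and 25.95 TPM with niraparib, against 34.33 and 32.73 TPM with DMSO (-0.41, limma adjusted p = 0.0179). After the GC adjustment 2 of the 10 were lower, ADRM1 and ECPAS, and 2 were higher, PAAF1 and AKIRIN2, with a median of -0.081. Among all genes 10.6% were lower and 15.6% higher after that adjustment. PAAF1 no longer passed without niraparib replicate 1 (limma adjusted p = 0.0837) or DMSO replicate 2 (0.0763), nor did ADRM1 without the same libraries (0.0505 and 0.06) or TXNL1 without niraparib replicate 1 (0.0629) or DMSO replicate 1 (0.0779). The calls of ECPAS and POMP held only without niraparib replicate 2 among the 4 fits, with limma adjusted p-values of 0.062 to 0.0934 for ECPAS and 0.067 to 0.121 for POMP in the others.

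Upstream of the particle, 4 of 11 ubiquitin and shuttle genes fell and 1 rose, against 11.7% of all genes tested lower and 20.8% higher. UBA6, the second ubiquitin-activating enzyme, had 17.47 and 16.9 TPM with niraparib, against 36.34 and 35.43 TPM with DMSO (-1.02, limma adjusted p = 0.0025). RAD23B, a shuttle that carries ubiquitinated proteins to the proteasome and also serves DNA repair, had 78.79 and 84.06 TPM with niraparib, against 128.3 and 131 TPM with DMSO (-0.67, limma adjusted p = 0.00285). RPS27A, a ubiquitin fusion with a ribosomal protein, had 983 and 1017 TPM with niraparib, against 1302 and 1254 TPM with DMSO. The polyubiquitin gene UBB did not pass, with a log2 fold change of 0.017. UBA1, the main activating enzyme, rose by 0.26 as deposited, and this call was lost after the GC adjustment (0.065) and its sign turned once the libraries were also centred. It was also lost without either DMSO library (limma adjusted p = 0.0532 and 0.0514).

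Of 10 regulators of proteasome gene transcription, 5 rose and 1 fell, against 4 and 2 after median-of-ratios scaling, with 20.8% of all genes tested higher and 11.7% lower as deposited. NFE2L1, which raises proteasome genes when proteasome activity is low, had 121.8 and 134.3 TPM with niraparib, against 93.92 and 96.32 TPM with DMSO (0.42, limma adjusted p = 0.00935). Its small MAF partners MAFK and MAFG rose by 0.65 and 0.53. NFYA, a subunit of the factor that binds CCAAT boxes, had 23.72 and 24.86 TPM with niraparib, against 31.35 and 34.44 TPM with DMSO (-0.42, limma adjusted p = 0.0188). NFE2L2, which also binds antioxidant elements, did not pass (-0.28). After the GC adjustment 2 of the 10 were higher, NFE2L1 and MAFG, which is near the 15.6% of all genes, and NFYA was lower. With the libraries also centred none of the 10 was higher, with NFE2L1 at 0.21 (limma adjusted p = 0.0702) and MAFG at 0.26 (0.0763). The call of NFYA was lost without niraparib replicate 1 (0.0795), niraparib replicate 2 (0.0518) or DMSO replicate 2 (0.0953), that of MAFG without niraparib replicate 1 (0.0627) or DMSO replicate 1 (0.0696) and that of MAFK without niraparib replicate 1 (0.0517).

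Genes of MHC class I antigen processing, the destination of immunoproteasome peptides, rose in 7 of 13 cases and fell in 1, with a median of 0.33. Over all genes tested, 20.8% rose and 11.7% fell. HLA-C had 541.9 and 541.4 TPM with niraparib, against 310.9 and 316.7 TPM with DMSO (0.79, limma adjusted p = 0.00109). HLA-B had 346.9 and 380.6 TPM with niraparib, against 196.4 and 194.4 TPM with DMSO (0.89, limma adjusted p = 0.00177). These genes resemble each other in sequence, and the split of reads between them is uncertain. TAP1, the peptide transporter subunit next to PSMB9, rose by 0.71 (limma adjusted p = 0.00516). IRF1, a transcription factor of the interferon response, had 78.74 and 72.49 TPM with niraparib, against 48.21 and 42.01 TPM with DMSO (0.73, limma adjusted p = 0.00559). TAP2, the partner of TAP1, was at -0.70, next to the threshold (limma adjusted p = 0.0467), and NLRC5, a transactivator of MHC class I genes, did not pass. After the GC adjustment 8 of the 13 were higher and 1 lower, which was CALR, against 15.6% of all genes higher and 10.6% lower. TAP2 then no longer passed (limma adjusted p = 0.053).

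The COP9 signalosome, a complex built on the same plan as the lid, had a median of -0.11. Of its 10 genes 4 were lower and none higher, against 11.7% of all genes tested lower and 20.8% higher. COPS4 fell by 0.59, and COPS5, its metalloprotease and the counterpart of PSMD14, had 56.75 and 65.68 TPM with niraparib, against 80.9 and 81.79 TPM with DMSO (-0.41, limma adjusted p = 0.0198). COPS3 fell by 0.26 and COPS2 by 0.51, and both calls were lost after the GC adjustment. COPS4 and COPS5 were then lower together with GPS1 (-0.30, limma adjusted p = 0.0209), which had not passed before, and COPS8 was higher (0.49, limma adjusted p = 0.0211). Of the 4 calls, only that of COPS4 held when each library was left out in turn. COPS5 lost its call without niraparib replicate 1 (0.0526), DMSO replicate 1 (0.0714) or DMSO replicate 2 (0.0742), COPS2 without the same libraries (0.146, 0.0569 and 0.156), and COPS3 without niraparib replicate 2 (0.0539) or either DMSO library (0.0675 and 0.0803).

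The identity of the cells was checked against marker genes. PAX8, a thyroid transcription factor, was at 206.7 and 195.5 TPM with niraparib and 189.1 and 191.4 TPM with DMSO, and keratins KRT8 and KRT18 were above 1000 TPM, whereas CDH1 was near 0. TG, TSHR, NKX2-1 and SLC5A5 were not analysed here. Of 5 leukocyte markers 1 was in the table, CD14 at 4.82 and 4.43 TPM with niraparib, against 2.79 and 3.07 TPM with DMSO, so that defining lymphocyte markers gave no value. The 2 endothelial markers in the table summed to at most 0.60 TPM in any library. The 2 fibroblast markers in the table summed to 143 and 137 TPM with niraparib, against 63.1 and 65.3 TPM with DMSO, which was nearly all COL1A1, with PDGFRB at 0.03 and 0.06 TPM with niraparib and at 0.05 and 1.21 TPM with DMSO. Their part in the result was not tested.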

How the data were processed

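RNA-Seq was taken from 4 libraries, grouped by the treatment in their labels. The authors deposited 1 table of TPM values, under a name that says counts. The methods name Trim Galore, STAR and hg19, whereas HISAT2, hg38 and mm10 stand beside Trim Galore in the submitters' processing notes; the tool and annotation behind TPM were not given in the sources used here. TPM keeps no read counts, so depth is unknown, no counting interval applies, and precision is judged from the spread of 2 libraries per group.

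The 13377 genes that reached 1 TPM in 2 or more libraries were tested with limma 3.58.1 in R 4.3.3 on log2(TPM + 1), with trend and robust priors. The fit was tested on simulated data, where false calls were more frequent than the threshold allows, so that calls near it are uncertain. Fold changes are niraparib minus DMSO on that scale, which understates changes of low genes. GC content is that of the canonical transcript in GENCODE release 44 lifted to GRCh37 (88.8% of symbols matched); a loess curve of each library's deviation on GC content (span 0.5) was subtracted as an alternative. The other alternatives are scaling, filter, pseudocount, priors, replicate block, fold minimum and each library left out. The centred GC adjustment and that of the ratios were added after the data were seen.

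Members, lists and roles were chosen with earlier results of these data known. Named by rule were all called members, all catalytic and inducible members, and of each related list up to 4 called genes of smallest p with NFE2L1, POMP and COPS5; the other genes were chosen after their values were seen, and a few genes of the related and marker lists are not reported here by name.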

Additional observations from a re-analysis of the deposited data

How the results depend on the processing

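No called member changed sign under any alternative run. Of the 29 called members, 12 kept their call under every alternative but the fold minimum, 9 lower (PSMA2, PSMA3, PSMA4, PSMB1, PSMC6, PSMD1, PSMD6, PSMD11 and PSMD14) and 3 higher (PSMB8, PSMB9 and PSMF1). Without the trend and robust priors 11 members and 1017 of all genes were lower, and with a fold of at least 1.5 as a further condition 2 members and 480 genes were lower and 1 member and 1402 genes higher. The centred GC adjustment left 1473 of all genes higher and the GC adjustment with the replicate block 1760.

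Scaling moved the medians. The members' median was -0.28 after median-of-ratios scaling, -0.27 after upper-quartile scaling and -0.28 after the centred GC adjustment, and that of the constitutive core and 19S genes was -0.33, -0.32 and -0.34 in the same order. The median of the 5 inducible genes was 0.14, 0.15 and 0.077, and 0.14 after the GC adjustment with or without the block. Median-of-ratios and upper-quartile scaling gave log2 ratios of summed TPM of -0.24 and -0.23 for all members, -0.30 and -0.29 for the constitutive genes and 0.22 and 0.23 for the inducible genes.

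Some genes changed sign. After the GC adjustment, with or without the block, values were 0.027 for PSMA5, 0.26 for PSMA8, -0.12 for PSMB10, 0.032 for PSMD10, -0.10 for PSMD4, -0.15 for PSMD8, 0.019 for PSMG1 and 0.071 for POMP. After the centred adjustment PSMA8 was at 0.19, PSMB10 at -0.18, PSMD4 at -0.17, PSMD8 at -0.22, POMP at 0.0059 and UBA1 at -4.1e-05. After median-of-ratios and upper-quartile scaling PSMD4 was at -0.073 and -0.065, and PSMD8 at -0.028 and -0.019. The cause was not tested.

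With 1 library left out, the lone library of its group was taken to vary like the other group. Over these 4 fits 14 to 19 members and 627 to 1159 of all genes were lower, and 1197 to 1616 genes were higher. The members' median ranged from -0.24 to -0.19, that of the constitutive genes from -0.29 to -0.22 and that of the inducible genes from 0.21 to 0.41. Log2 ratios of sums ranged from -0.18 to -0.13 for all members and from -0.24 to -0.19 for the constitutive genes. The ratio of PSMB10 over PSMB7 was 0.12 to 0.69 on the log2 scale, against 0.40 with all libraries. PSMB10 ranged from -0.09 to 0.41, PSMC3 from -0.10 to 0.004, PSMC4 from -0.10 to 0.016, PSMD4 from -0.049 to 0.063, PSMD9 from -0.36 to 0.014 and PSMG4 from -0.25 to 0.0049.

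The replicate numbers are shared by the groups, but no label says that they mark pairs, and deviations of same-numbered libraries did not correlate (-0.0148). With the replicate block 20 members were lower and 4 higher, and the calls of PSMA6, PSMB4, PSMD13, PSMD5 and PSMG2 were lost. With 2 libraries a group, differences of more than a few percent could also stay below the threshold, as with PSMA5 at -18.6% and PSMB10 at 13.7%.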
